A study of Mus musculus with 48 samples.

Results

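The genes described here encode the MHC class II antigen presentation machinery, measured by RNA sequencing in enteroendocrine cells (EECs), the hormone-secreting cells of the gut epithelium, from 3 intestinal regions of mice after vertical sleeve gastrectomy (VSG) or sham surgery. They were listed by name, and comprise H2-Aa, H2-Ab1, H2-Eb1, H2-DMa, H2-DMb1, Cd74 and Ciita, 7 of the 53465 genes in the count table. All 7 were measured well enough to be tested, among 15126 genes that passed the filter on low counts. Ptprc, which encodes the leukocyte surface protein CD45, was followed beside them as a measure of admixed immune cells.

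The cells came from Neurod1-cre-eYFP mice, in which cells that have expressed the Cre driven by Neurod1, and their descendants, are labelled with a yellow fluorescent protein. All animals were lean males of about 20 weeks on a C57BL6 background, fed standard chow, and were killed 6 weeks after surgery and about 15 min after an oral glucose load of 3 g/kg. VSG mice (6 mice) had 70 to 80% of the stomach removed. Sham mice fed freely are called S_al (6 mice), and sham mice whose food was limited to keep their weight at that of the VSG mice are called S_wm (5 mice). There was no unoperated group. EYFP-positive cells were sorted from the top 5 cm of the small intestine (labelled duodenum), the bottom 15 cm (labelled ileum) and the colon with rectum (labelled colon), and CD45-positive cells were gated out. The 48 libraries comprised 5 S_al, 5 S_wm and 6 VSG libraries for each region, and 15 of the 17 mice gave all 3 regions.

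MHC class II molecules present peptides, taken up from outside the cell and cut in endosomes, to CD4+ T cells. H2-Aa and H2-Ab1 encode the alpha and beta chains of the mouse class II molecule I-A, and H2-Eb1 encodes the beta chain of a related molecule, I-E. Cd74 encodes the invariant chain, which fills the peptide groove and guides new class II molecules to endosomes, where the H2-DM heterodimer of H2-DMa and H2-DMb1 helps peptides replace its last fragment. Ciita encodes the class II transactivator, which does not bind DNA itself and acts on factors already bound at the promoters of the other genes. Dendritic cells, macrophages and B cells express the set strongly, and epithelial cells of the small intestine can express it, above all under interferon-gamma.

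In the GRCm38 assembly, 5 of the 7 genes lie within the MHC on chromosome 17, at chr17:34119541-34139101 (H2-DMa, + strand), chr17:34153072-34160230 (H2-DMb1, + strand), chr17:34257689-34269419 (H2-Ab1, + strand), chr17:34282744-34287823 (H2-Aa, - strand) and chr17:34305867-34316674 (H2-Eb1, + strand). Ciita lies at chr16:10480059-10528418 on the + strand, and Cd74 lies outside the MHC as well. Exons of H2-DMa share 360 bases with Brd2 and exons of Ciita share 329 bases with Dexi, in both cases on the opposite strand, so that reads there could count for either gene if strand was not used. Of the 50-base windows of the H2-DMb1 transcripts, 22.65% also occur in the neighbouring copy H2-DMb2, against 0.51% of the H2-Aa windows shared with any other gene and none of those of H2-Ab1, H2-Eb1 and Cd74.

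Class II promoters share an X box, bound by the RFX complex, followed by a Y box, bound by NF-Y. RefSeq promoter windows on GRCm38.p6, running from 250 bases before to 50 bases after a transcription start, were found for 4 of the 7 genes (H2-Aa, H2-Eb1, H2-DMa and H2-DMb1). These windows were searched on both strands for the X box core ACNGATG and the Y box ATTGG, and 3 stretches are shown to let the promoters be compared: those of the members H2-Eb1 and H2-Aa, and that of H2-DMb2, which is no member but the neighbouring copy of H2-DMb1. Capitals mark the X box core, where the stretch holds one, and the Y box.
H2-Eb1, chr17:34305749-34305822, + strand: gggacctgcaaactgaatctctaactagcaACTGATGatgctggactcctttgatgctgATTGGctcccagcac
H2-Aa, chr17:34287857-34287928, - strand: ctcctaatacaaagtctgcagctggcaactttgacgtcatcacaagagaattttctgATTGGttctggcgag
H2-DMb2, chr17:34145099-34145173, + strand: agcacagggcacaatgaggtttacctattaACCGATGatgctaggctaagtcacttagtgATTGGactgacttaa

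In H2-Eb1 the X box core began 88 bases before the start and was followed, after 22 bases, by the Y box. H2-DMb1 held the same pair 91 and 61 bases before its RefSeq start with 23 bases between them; that stretch lies inside an exon of the GENCODE model and is not printed. Of all 32851 promoter windows, 9.85% held the X box core, 37.4% held the Y box and 0.158% held both in this order and 10 to 30 bases apart, a spacing range set after the sequences had been read. The H2-Aa window held the Y box, at 48 bases before the start, and the X box core only on the other strand, while neither H2-DMa window held the X box core and 1 of them held a Y box. A match is a description of letters and not of binding.

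Library totals ran from 4648651 to 17182463 counts (median 6713018). EEC markers were abundant in every library, with a summed level of 14 markers between 29761 and 100179 CPM (counts scaled to a common library size, with TMM factors) in 47 of the 48 libraries. The exception was the duodenum library of mouse 27 (S_wm), where that sum was 12281 CPM, the summed level of 14 enterocyte markers was 65021 CPM against 7732 to 19817 in the other duodenum libraries, and the sum of 18 T cell and intraepithelial lymphocyte markers was 348 CPM against 3.97 to 78.8. Where leaving this library out changed a call or moved a count of calls by over 1.5 times, the value without it is given as well. For mouse 12, the tissue label and the segment code in the description are crossed between the ileum and the colon library; the tissue label was used, and the enterocyte sums of these libraries, 16891 and 1173 CPM, lay within the ranges of the other ileum (6099 to 21798 CPM) and colon (874 to 1549 CPM) libraries. Each mouse gave at most 1 library per region, so the surgery groups within a region hold different mice. All 48 libraries shared 1 estimate of the spread. Comparisons between regions took the libraries of a mouse as separate, so their p-values leave out the pairing by mouse.

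The 7 genes formed a gradient along the gut: their level was highest in the ileum, intermediate and variable in the duodenum, and lowest in the colon. Cd74 (chr18:60803848-60812652, + strand), the member with the highest level per length in the ileum, ran from 162 to 1336 CPM in the ileum (median 891, n = 16), from 18.5 to 1816 CPM in the duodenum (median 120) and from 1.14 to 355 CPM in the colon (median 12.9). In 14 of the 15 mice with all 3 regions the ileum library was above the duodenum library, and in 15 of 15 the duodenum library was above the colon library. The exception was mouse 27, whose duodenum library stands apart as described above.

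**Figure D1:**
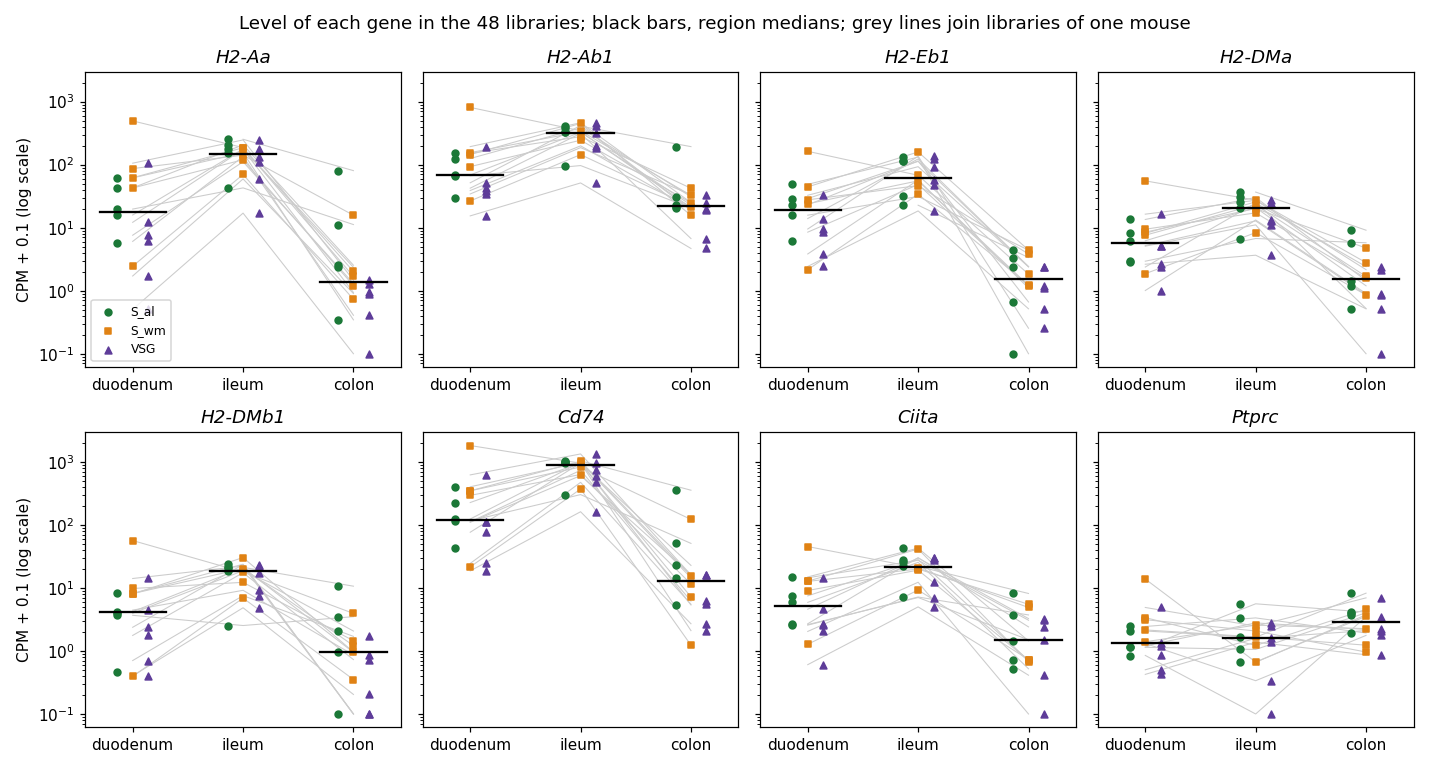
Level of each gene in CPM plus 0.1, on a log axis, in the 48 libraries by region, with 1 point per library, black bars for region medians and grey lines joining the libraries of a mouse. The 7 class II genes peak in the ileum and are lowest in the colon (Cd74 medians 120, 891 and 12.9 CPM), while Ptprc stays between 0 and 13.7 CPM in all regions.

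The chains of I-A differed from each other in how low they went. H2-Ab1 ran from 51.2 to 462 CPM in the ileum (median 320), from 15.3 to 809 CPM in the duodenum (median 67.5) and from 4.58 to 193 CPM in the colon (median 22.2). H2-Aa ran from 16.9 to 253 CPM in the ileum (median 148), from 0.405 to 494 CPM in the duodenum (median 17.7) and from 0 to 80.2 CPM in the colon (median 1.29). The alpha chain was thus near the limit of detection in most colon libraries, where the beta chain still gave at least 43 reads in every library. The ratio of H2-Aa to H2-Ab1 reads had a median of 0.486 in the ileum (0.298 to 0.620), 0.265 in the duodenum (0.0265 to 0.611) and 0.0508 in the colon (0 to 0.544). Per kilobase of exon, the mean level of H2-Ab1 was 113 CPM per kb in the ileum and 12.96 CPM per kb in the colon, and that of H2-Aa was 37.5 and 2.00 CPM per kb.

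H2-Eb1 ran from 18.3 to 159 CPM in the ileum (median 62.4), from 2.06 to 163 CPM in the duodenum (median 19.3) and from 0 to 4.32 CPM in the colon (median 1.43). It was the only member for which every ileum library was above every colon library. The share of all tested genes that separate these regions in this way is not given here, so the separation is no trait of H2-Eb1. C57BL/6 mice lack a working gene for the I-E alpha chain, and the reference gene H2-Ea-ps gave 34 reads in all 48 libraries together.

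The genes of peptide loading and control were lower in level and had the same order of regions. H2-DMa had medians of 5.60 CPM in the duodenum, 20.4 CPM in the ileum and 1.41 CPM in the colon. H2-DMb1 had medians of 3.99, 18.2 and 0.858 CPM in that order. Ciita had medians of 5.15, 21.3 and 1.38 CPM, and ran from 4.90 to 42.7 CPM in the ileum and from 0 to 8.06 CPM in the colon. Per kilobase of exon the order of mean levels in the ileum was Cd74 (459.5 CPM per kb), H2-Ab1 (113), H2-Eb1 (40.2), H2-Aa (37.5), H2-DMb1 (9.59), H2-DMa (5.57) and Ciita (2.27), where H2-Eb1 and H2-Aa, with SDs of 23.5 and 18.3, did not differ beyond their spread.

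Between ileum and duodenum, all 7 genes were higher in the ileum at an adjusted p below 0.05 (edgeR quasi-likelihood test with Benjamini-Hochberg adjustment over all 15126 genes), against a background of 33.8% of all genes called in this comparison and 17.2% called higher in the ileum. The log2 fold changes ran from 1.19 ± 0.39 (SE) for H2-DMa to 1.67 ± 0.57 for H2-Aa, with a median of 1.48 beside 0.00 for all genes tested. Cd74 was 3.04-fold higher (log2 1.60 ± 0.55, adjusted p = 0.0209) and H2-Eb1 3.16-fold higher (log2 1.66 ± 0.39, adjusted p = 0.000946). Without the duodenum library of mouse 27 the difference was wider, with log2 1.99 ± 0.55 for Cd74 and 2.18 ± 0.56 for H2-Aa.

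This difference between ileum and duodenum cannot be told apart from the library index. Of the 16 duodenum libraries 12 carry index D502, which no ileum or colon library carries, and 4 carry D501, as do 7 ileum libraries. With the index as a covariate none of the 7 genes passed (edgeR, 0 of 7; Cd74 log2 -0.032 ± 0.91, H2-Eb1 0.27 ± 0.68). Within index D501, Cd74 ran from 116 to 1816 CPM in the 4 duodenum libraries (median 314) and from 162 to 1038 CPM in the 7 ileum libraries (median 630), so the regions overlapped there. The 1816 CPM are those of mouse 27, whose duodenum library stands apart as described above. The other duodenum libraries on D501 held 116, 226 and 402 CPM, which still overlapped the ileum. The fit with the index was not run without the library of mouse 27. Mouse 32, the only one with both of these libraries on D501, had 116 CPM in the duodenum and 302 CPM in the ileum.

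Between colon and duodenum, all 7 genes were lower in the colon, where 55% of all genes were called in either direction and 28.3% were called lower. Log2 fold changes ran from -3.85 ± 0.51 for H2-Eb1 (14.5-fold lower, adjusted p = 1.87e-08) to -1.85 ± 0.48 for Ciita (3.61-fold lower, adjusted p = 0.00107), with a median of -2.27 beside -0.01 for all genes tested. Cd74 was 9.08-fold lower (log2 -3.18 ± 0.60, adjusted p = 1.63e-05) and H2-Ab1 3.66-fold lower (log2 -1.87 ± 0.41, adjusted p = 0.000158). Without the duodenum library of mouse 27 all 7 still passed, with log2 -2.78 ± 0.57 for Cd74, -1.44 ± 0.37 for H2-Ab1 and a median of -1.81.

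Between colon and ileum, all 7 genes were again lower in the colon, where 49.2% of all genes were called in either direction and 25.4% were called lower. The largest differences among the 7 were those of H2-Eb1 (45.8-fold, log2 -5.52 ± 0.52, adjusted p = 5.6e-12), H2-Aa (38.2-fold, log2 -5.26 ± 0.73) and Cd74 (27.6-fold, log2 -4.78 ± 0.64). The smallest was that of H2-Ab1 (9.58-fold, log2 -3.26 ± 0.43), and the median was -3.62. With the library index as a covariate these values were larger, -5.74 ± 0.61, -6.40 ± 0.98, -6.21 ± 0.90 and -3.86 ± 0.55, and all 7 genes passed in both comparisons with the colon. Colon and duodenum share only index D501, carried by 4 duodenum libraries and 1 colon library, that of mouse 12 with the crossed labels. Region and index are thus largely confounded between colon and duodenum as well. Within index D503, the 8 ileum libraries held 371 to 1336 CPM of Cd74 and the 4 colon libraries 1.14 to 50.8 CPM, with no overlap.

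**Figure D2:**
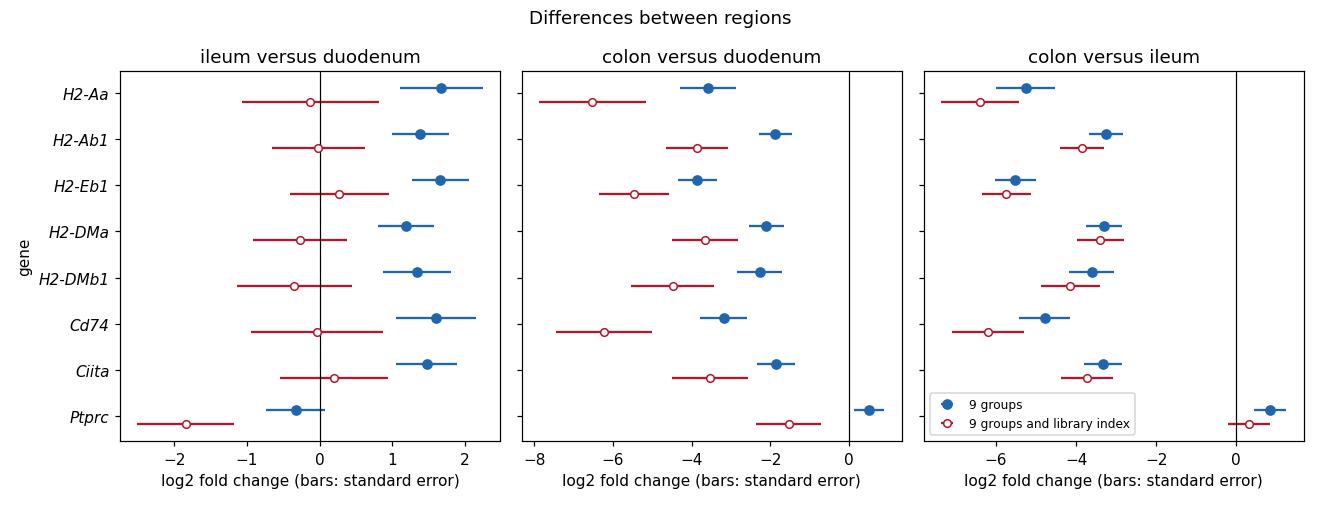
Log2 fold changes between regions, in 3 panels, for the 7 class II genes and Ptprc, with bars for the standard error; filled points come from the fit of 9 groups and open points from the same fit with the library index as a covariate. In the ileum against duodenum panel the open points of the class II genes lie between -0.35 and 0.27 (Cd74 -0.032), and that of Ptprc lies at -1.85. In both panels with the colon all class II genes lie below 0 in both fits.

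Ptprc, in contrast, was low in every region and did not follow this order. It ran from 0.325 to 13.7 CPM in the duodenum (median 1.26), from 0 to 5.50 CPM in the ileum (median 1.52) and from 0.769 to 8.16 CPM in the colon (median 2.77), and it passed in none of the 3 region comparisons (log2 -0.33 ± 0.40 for ileum against duodenum, 0.52 ± 0.39 for colon against duodenum and 0.85 ± 0.40 for colon against ileum, adjusted p = 0.571, 0.265 and 0.0741, edgeR). The difference between colon and ileum passed with DESeq2 (log2 0.88) and with limma voom and the mouse as a block (log2 1.01), with the colon higher. There were 443 reads of Cd74 for each read of Ptprc over the ileum libraries, 130 over the duodenum libraries and 11.8 over the colon libraries. With the log2 level of Ptprc as a covariate, all 7 genes still passed in the 3 region comparisons. Ptprc had only 304, 175 and 306 reads over the 16 duodenum, ileum and colon libraries, after CD45-positive cells had been gated out. A covariate from so few reads cannot decide what part immune cells had in the levels.

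Within a region the genes and Ptprc rose together in part. Over the 16 duodenum libraries, Cd74 and Ptprc correlated with Pearson's r = 0.70 (permutation p = 0.00241, adjusted p = 0.0125 over 21 relations) and Spearman's rho = 0.63 (permutation p = 0.0110, adjusted p = 0.0610). All 7 genes passed in the duodenum by Pearson's r (0.62 to 0.76), as did H2-Eb1 in the ileum (r = 0.60) and Cd74 in the colon (r = 0.58), and the other 12 relations did not. The share of all genes that would pass the same test is not given here, so these counts are no trait of the class II genes. By Spearman's rho none of the 21 passed. After the means of the surgery groups were removed, r for Cd74 in the duodenum was 0.64 (adjusted permutation p = 0.116), and without the 2 libraries farthest from the median of Ptprc it was 0.43 (adjusted permutation p = 0.366), so the relation rests on those libraries; none of the 21 relations passed in either setting.

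**Figure D3:**
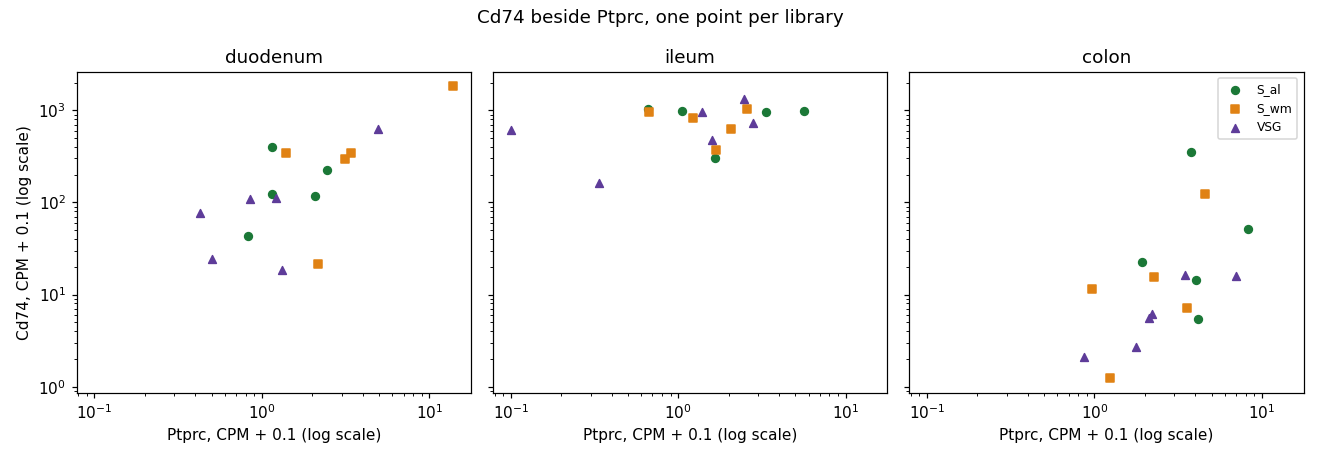
Cd74 against Ptprc in each library, both in CPM plus 0.1 on log axes, with a panel for each region and a colour and marker for each surgery group. Over overlapping levels of Ptprc, Cd74 has a median of 891 CPM in the ileum and 12.9 CPM in the colon, and the duodenum library with 13.7 CPM of Ptprc is that of mouse 27.

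Other leukocyte markers were near the floor. Of 10 pan-leukocyte genes 5 could be tested, and they moved in no common direction: Vav1, a signalling factor of blood cells, was higher in ileum than duodenum (log2 1.83 ± 0.19), Coro1a, an actin-binding protein of blood cells, was lower in colon than ileum (log2 -1.67 ± 0.49, adjusted p = 0.00389, edgeR), and Cytip and Laptm5 passed nowhere. With the duodenum library of mouse 27 left out, Coro1a was also higher in ileum than duodenum (log2 1.73). The defining B cell gene Cd79a had 34 reads in all 48 libraries, and only Cd22 of 9 B cell genes could be tested (higher in ileum than duodenum, log2 0.85 ± 0.30). Of 20 macrophage and dendritic cell genes, 5 could be tested; Lyz2, the lysozyme of macrophages, had the full order of the class II genes (log2 2.46 ± 0.44 for ileum against duodenum, -2.90 ± 0.65 for colon against duodenum and -5.36 ± 0.60 for colon against ileum). Itgam was higher in ileum than duodenum and lower in colon than ileum, C1qa and Mrc1 were lower in the colon than in both, and Cd14 rose from duodenum to ileum and again to colon. The summed level of this list ran from 8.03 to 33.0 CPM in the duodenum, 10.8 to 30.4 CPM in the ileum and 11.1 to 30.5 CPM in the colon, and Flt3, Zbtb46 and Itgax, genes of dendritic cells, had 31, 103 and 60 reads in all.

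T cell and intraepithelial lymphocyte markers fell from the duodenum to the colon, as the class II genes did, but were not highest in the ileum. All 8 genes of this list that could be tested, of 18, were lower in colon than duodenum, among them Gzma (log2 -4.27 ± 0.77), Cd8a (-2.15 ± 0.61) and Cd3e (-1.97 ± 0.79), and Gzma and Itgae were also lower in colon than ileum. None passed between ileum and duodenum. Without the duodenum library of mouse 27, 5 of the 8 were lower in colon than duodenum (Gzma log2 -3.48), while Cd3e (-1.07), Cd3g and Itgae did not pass. The sum of the list had medians of 14.3 CPM in the duodenum, 9.24 CPM in the ileum and 4.79 CPM in the colon. The part of these cells in the levels of the class II genes was not tested.

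Enterocyte markers followed the class II genes in the colon, while markers of colonocytes, the absorptive cells of the colon, mostly did not. Of 10 colonocyte genes 6 were higher and 2 lower in colon than ileum (median log2 1.55). Their median against the duodenum was 2.23. Of 8 goblet cell genes 6 were higher and 0 lower in colon than ileum. All 14 enterocyte genes were lower in colon than duodenum and than in the ileum (median log2 -4.53 and -4.14), with a summed level of 874 to 1549 CPM in the colon against 6099 to 21798 CPM in the ileum. Between ileum and duodenum 2 were higher and 3 lower, or 6 and 3 without the duodenum library of mouse 27. The 7 Paneth cell genes were higher in ileum than duodenum (median log2 2.63) and lower in colon than ileum (-7.97), and 9 of 11 crypt stem cell genes were higher in ileum than duodenum and 9 were lower in colon than ileum. In bulk RNA of sorted cells, fewer cells of a type and less RNA per cell cannot be told apart, and the part of other epithelial cells in these levels was not tested.

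The rest of the class II pathway did not share the gradient as a set. Of 21 further genes 14 could be tested, and 2 were higher and 2 lower in ileum than duodenum, 3 higher and 5 lower in colon than duodenum, and 3 higher and 6 lower in colon than ileum (median log2 -0.05, -0.07 and -0.07). Among the factors that bind class II promoters, Rfx5, a subunit of the RFX complex, was higher in colon than ileum (log2 0.38 ± 0.11, adjusted p = 0.00209, edgeR), and Nfyb, a subunit of NF-Y, was lower there (log2 -0.35 ± 0.09, adjusted p = 0.00111, edgeR). Nfya and Nfyc passed in none of the 3 comparisons. Ctss, the protease that trims the invariant chain, was higher in colon than ileum (119 against 62.2 CPM on average, log2 0.91 ± 0.22). Cd40, a costimulatory receptor, had the order of the class II genes at a low level (means of 0.894, 2.44 and 0.502 CPM in duodenum, ileum and colon), being higher in ileum than duodenum (log2 1.43 ± 0.45, adjusted p = 0.0108, edgeR) and lower in colon than ileum (log2 -2.29 ± 0.48). H2-Oa, H2-Ob, Cd80 and Cd86 had 29, 14, 14 and 4 reads in all and could not be tested.

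Class I presentation genes were also lower in the colon, by less. All 22 genes of this list were tested; 15 were lower in colon than duodenum and 19 lower than in the ileum, with none higher (median log2 -0.67 and -0.71). B2m, the light chain of class I molecules, fell by 1.21 ± 0.22 on the log2 scale from ileum to colon, and Psmb8, a catalytic subunit of the immunoproteasome, by 1.94 ± 0.26. Nlrc5, the class I transactivator and a relative of Ciita, was low in level and fell by 2.58 ± 0.48. Between ileum and duodenum 4 class I genes were higher, Canx, H2-D1, Tap1 and Tapbpl, and 2, Pdia3 and H2-Q2, were lower. When the duodenum library of mouse 27 was left out, 12 were higher and 2 lower in ileum than duodenum, B2m (log2 0.51) and Psmb8 (0.69) among those higher, and 12 were lower and 1 higher in colon than duodenum.

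Of 26 interferon response genes 23 were tested, and 8 were higher and 1 lower in ileum than duodenum, 4 higher and 5 lower in colon than duodenum, and 2 higher and 12 lower in colon than ileum. The first of these counts was, without the duodenum library of mouse 27, 13 higher and 1 lower. Irf8 (log2 -0.97 ± 0.14), Ido1 (-2.61 ± 0.58) and Ubd (-3.77 ± 0.74) were lower in colon than ileum. Ifngr1, a chain of the interferon-gamma receptor, was higher in colon than ileum (log2 0.38 ± 0.10). Gbp2 and Iigp1 were higher in colon than duodenum, unlike the class II genes.

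The class II genes varied together from library to library once the region means were removed. Over the 48 libraries, the 21 pairs of genes had Pearson's r from 0.65 to 0.95 (median 0.80) on the log2 CPM scale. By the same measure the 10 other genes most like the mean of the 7 were Irgm2 (r = 0.83), Igtp (0.82), Psmb9 (0.81), B2m (0.80), Tap1 (0.80), Gm12250 (0.79), Tap2 (0.78), Psmb8 (0.78), Tnfsf10 (0.77) and Gbp2 (0.70), out of 15119 tested genes. Ptprc, with r = 0.57, came at place 172 in that order. All enteroendocrine markers but Neurog3 (r = 0.14) had a negative r, from -0.55 (Chga) to -0.23 (Isl1). All enterocyte markers had a positive r, from 0.18 (Sis) to 0.63 (Anpep), and Anpep, Mttp (0.62), Dgat1 (0.59) and Slc5a1 (0.59) lay above Ptprc. The part of cell content in these relations was not tested. The 48 libraries share mice and differ in depth, and the values are a description. Levels in duodenum and ileum of the same mouse also went together: over the 15 mice with all regions, Pearson's r was 0.73 for Cd74 (permutation p = 0.00178, adjusted p = 0.0187 over 21 relations) with Spearman's rho = 0.68 (permutation p = 0.00720, adjusted p = 0.0378). H2-Aa (r = 0.75) and Ciita (r = 0.71) passed as well, and no relation with the colon did. How many of all genes would pass this test is not given here, so the counts cannot be read as a trait of the class II genes. With the 2 mice farthest from the median of the first region left out, r for Cd74 was 0.68 and the adjusted permutation p = 0.0800, and none of the 21 relations passed; with surgery group means removed 4 passed, and by Spearman's rho 5 passed.

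VSG was set against both kinds of sham to ask whether the operation, or the weight loss that comes with it, changed EECs. None of the 7 class II genes passed at an adjusted p of 0.05 in any of the 12 surgery comparisons or in the test of surgery by region interaction (edgeR, 0 of 7 each; DESeq2 and limma voom also gave 0 of 7 each). Few genes of any kind passed. The share of all genes was 0% for VSG against S_al (mean of regions, duodenum, ileum and colon) and for the interaction. For VSG against S_wm it was 0.245% (mean of regions), 0.225% (duodenum), 0.0463% (ileum) and 0.0595% (colon). For S_wm against S_al it was 0.0529% (mean of regions), 0% (duodenum), 0% (ileum) and 0.0132% (colon). Without the duodenum library of mouse 27, 6 genes passed for VSG against S_al over the mean of regions (0 with it). For VSG against S_wm, 14 then passed in the colon (9 with it) and 0 in the duodenum (34 with it). For S_wm against S_al, 1 then passed in the ileum (0 with it). At an unadjusted p below 0.05 there were 4 of the 7 for VSG against S_al over the mean of regions and 4 in the colon, 6 for VSG against S_wm over the mean of regions and 6 in the duodenum, 3 for S_wm against S_al in the duodenum, 1 in the interaction and 0 in the other 7 comparisons. The share of all genes under the same unadjusted threshold was 5.53%, 6.28%, 9.92%, 8.71%, 6.55% and 4.9% in the comparisons just named, in that order. The 2 shares in the duodenum rest in part on the library of mouse 27. Without it the genes under this threshold fell from 1318 to 509 for VSG against S_wm and from 990 to 417 for S_wm against S_al. The unadjusted counts of the 7 genes without this library are not given here. These comparisons share groups, so their counts are not independent. Those over the mean of regions also took the libraries of a mouse as separate replicates.

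**Figure D4:**
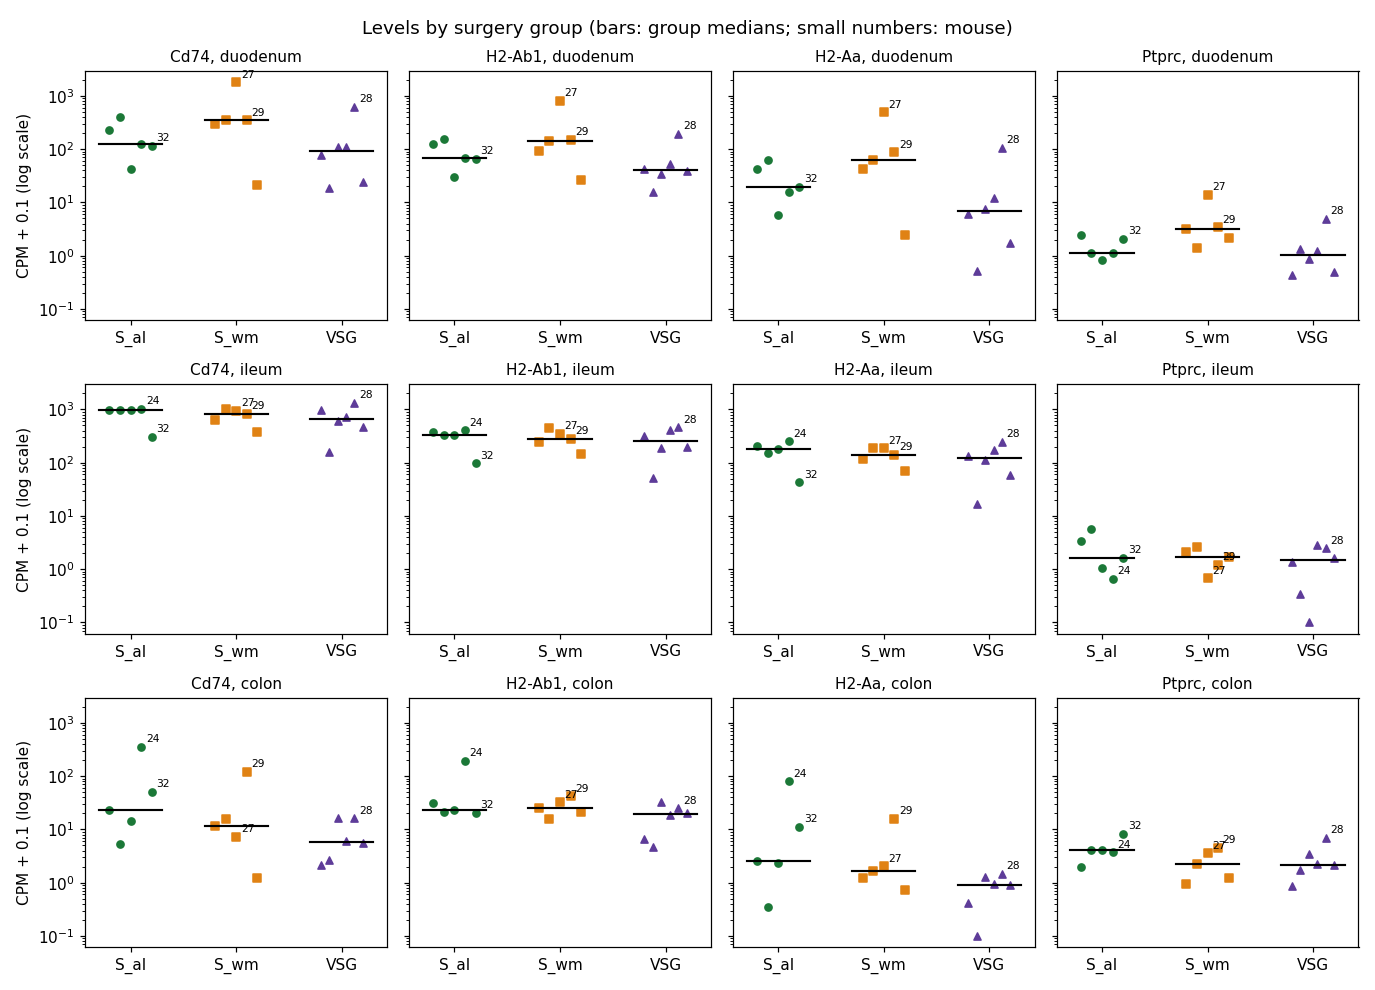
Levels of Cd74, H2-Ab1, H2-Aa and Ptprc in CPM plus 0.1 on a log axis by surgery group, with rows for duodenum, ileum and colon, bars for group medians and mouse numbers beside the libraries of mice 24, 27, 28, 29 and 32. The groups overlap in every panel, and the highest duodenum library (mouse 27, 1816 CPM of Cd74) is in the S_wm group and the highest colon library (mouse 24, 355 CPM) in the S_al group.

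In the duodenum, Cd74 was at 42.7, 116, 124, 226 and 402 CPM in S_al mice, at 21.5, 294, 347, 347 and 1816 CPM in S_wm mice, and at 18.5 to 621 CPM in VSG mice (median 93.2). The groups overlapped, and 1 S_wm mouse was as low as the lowest VSG mice. For VSG against S_wm the log2 fold changes of the 7 genes ran from -2.64 ± 0.99 (H2-Aa) to -1.63 ± 0.67 (H2-DMa), and the lowest adjusted p was 0.157 (H2-Eb1, -2.16 ± 0.68; edgeR). Ptprc had the same direction (-1.70 ± 0.66, adjusted p = 0.323). Without the duodenum library of mouse 27 the values shrank to -1.14 ± 0.95 for H2-Aa, -0.67 ± 0.92 for Cd74 and -0.37 ± 0.65 for H2-DMa, with adjusted p = 1 for each. Of all genes, 34 passed with that library and 0 without it; the 3 list genes among the 34 were the enterocyte gene Fabp2 and the Paneth cell genes Itln1 and Defa17, with adjusted p = 1, 1 and 0.449 (edgeR) without it.

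In the ileum the groups were nearly level. Cd74 was at 302, 957, 980, 989 and 1038 CPM in S_al mice, at 371, 630, 828.9, 953 and 1023 CPM in S_wm mice, and at 162 to 1336 CPM in VSG mice (median 670). The median log2 fold change of the 7 genes was -0.32 for VSG against S_al and -0.19 for VSG against S_wm, with standard errors of 0.65 to 0.94, and the lowest unadjusted p was 0.322 (edgeR).

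In the colon, Cd74 was at 5.26, 14.3, 22.7, 50.8 and 355 CPM in S_al mice, at 1.14, 7.10, 11.5, 15.5 and 122 CPM in S_wm mice, and at 2.00 to 16.1 CPM in VSG mice (median 5.75). VSG and S_al overlapped, and mouse 24 alone held 1849 of the 2404 Cd74 reads of the S_al colon libraries. For VSG against S_al the log2 fold change was -3.48 ± 1.03 for Cd74 and -4.71 ± 1.45 for H2-Aa (adjusted p = 0.696 for both, edgeR), while Ciita (-0.62 ± 0.90) and H2-Eb1 (-0.79 ± 1.13) lay within their errors. Without mouse 24 these values were -1.51 ± 0.99 for Cd74, -2.31 ± 1.63 for H2-Aa and 0.33 ± 1.02 for Ciita.

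Reads of the copy H2-DMb2 were present in some mice and not in others. All libraries of 6 mice (16, 22, 24, 27, 28 and 29) held H2-DMb2 reads, at 21.3 to 64.3 per 100 reads of H2-DMb1, and these were 1 S_al, 3 S_wm and 2 VSG mice. In 9 mice (11, 12, 13, 17, 18, 19, 25, 30 and 31) no library held a read of H2-DMb2 beside 1115 reads of H2-DMb1 in all, and mice 21 and 32 held 4 reads each. The ratio of H2-Eb1 to H2-Ab1 reads in the ileum also differed by mouse, from 0.0556 in mouse 24 and 0.167 in mouse 29 to 0.396 in mouse 13 and 0.434 in mouse 11. The labels give all animals as the same strain; alleles were not tested, and the part of such a difference in the levels above was not tested.

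**Figure D5:**
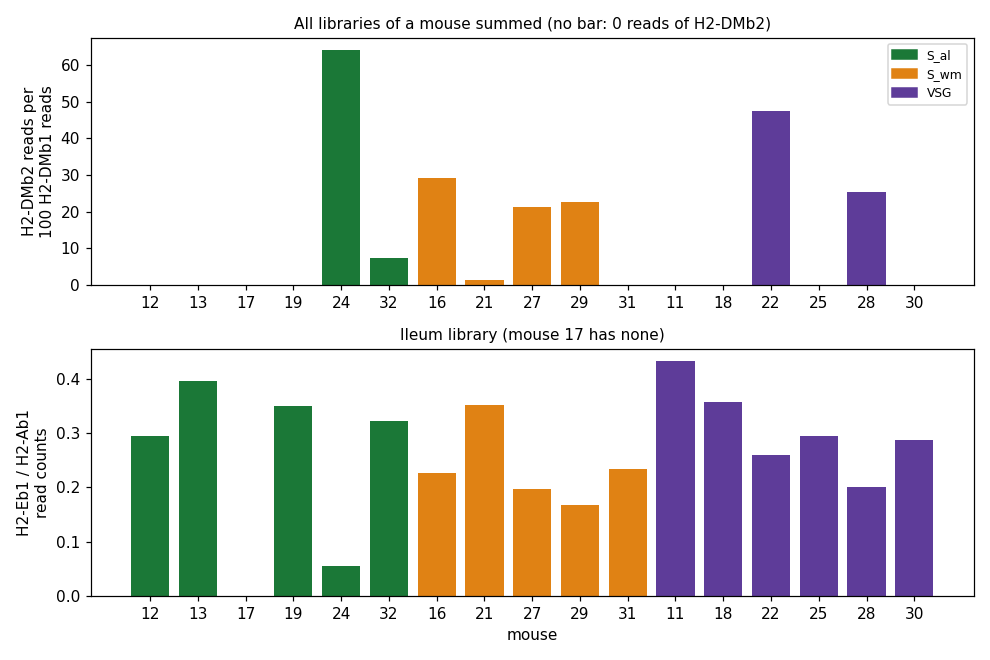
Upper panel, reads of H2-DMb2 per 100 reads of H2-DMb1 with all libraries of a mouse summed; lower panel, ratio of H2-Eb1 to H2-Ab1 reads in the ileum library; bars are mice, coloured by surgery group. H2-DMb2 is at 21.3 to 64.3 in 6 mice and at 0 in 9, and mouse 24 has the lowest ratio in the lower panel (0.0556).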

How the data were processed

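EECs were sorted by the authors, 1500 to 20000 per sample, and 2 ng of RNA gave libraries with the SMARTer stranded total RNA pico v2 kit, read as single 50-base reads. The deposited values are raw read counts per Ensembl gene for 48 libraries; the submitters' processing notes name CASAVA, STAR 2.5.1 and GRCm38, and the study's methods Ensembl release 91. Whether counting used strand is not given in the sources used here. Counts were fitted in edgeR 4.0.16 (R 4.3.3; filterByExpr, TMM scaling, robust quasi-likelihood) with a mean for each of 9 surgery and region groups. CPM are TMM-scaled; log2 CPM used a prior count of 2. Alternatives were DESeq2 1.42.0, its size factors, a random mouse block in limma 3.58.1 voom, a fixed mouse block, other filters, the library index or Ptprc as covariates, and leaving out each mouse. Same-numbered samples come from the same mouse, so the numbers pair the samples (within-mouse correlation 0.128 in voom). Correlations used 100000 permutations, two-sided. The edgeR script was tested on simulated data. The members and all lists were chosen with earlier results of these data known. The text names the 7 genes and Ptprc, list genes by lowest p or by role, and the 10 genes most like the members. Symbols, positions and exon lengths came from GENCODE M21, which held 53360 of the 53465 genes.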

Additional observations from a re-analysis of the deposited data

Results flagged for a closer look

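In 24 of 72 sets of 5 or 6 libraries (8 genes in 9 groups), the highest or the lowest library lay farther from the others than Dixon's 95% value allows. For normally distributed values chance gives about 1 in 20 such sets; the CPM used here were not log-transformed, the rate for them was not tested, and the 8 genes are not independent of each other. No explanation was tested.

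In the S_wm duodenum, mouse 27 stood high for all 7 class II genes and Ptprc, with 494 CPM of H2-Aa, 809 of H2-Ab1, 163 of H2-Eb1, 55.2 of H2-DMa, 56.4 of H2-DMb1, 1816 of Cd74, 45.2 of Ciita and 13.7 of Ptprc. The next highest library of the group had 347 CPM of Cd74 and 3.28 CPM of Ptprc. In this library enterocyte and T cell marker sums were also the highest of the duodenum, and the enteroendocrine sum the lowest. In the VSG duodenum, mouse 28 stood high with 105 CPM of H2-Aa, 193 of H2-Ab1, 16.3 of H2-DMa, 14.01 of H2-DMb1, 621 of Cd74, 14.4 of Ciita and 4.80 of Ptprc, where the next library had 111 CPM of Cd74 and 1.21 CPM of Ptprc.

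In the S_al colon, mouse 24 stood high with 80.2 CPM of H2-Aa, 193 of H2-Ab1 and 355 of Cd74, and in the S_wm colon, mouse 29 stood high with 15.6 CPM of H2-Aa and 122 of Cd74; Ptprc did not stand apart in either. The colon library of mouse 29 had the highest colon sums of T cell and intraepithelial lymphocyte markers (16.6 CPM) and of macrophage and dendritic cell markers (30.5 CPM). That of mouse 24 ranked 3 and 7 in the colon for these sums (9.79 and 22.3 CPM). In the S_al ileum, mouse 32 stood low with 96.6 CPM of H2-Ab1, 2.43 of H2-DMb1 and 302 of Cd74, against 327, 18.7 and 957 CPM in the next lowest library. In the S_wm ileum, mouse 21 stood high for H2-Eb1 alone, with 159 CPM against 67.7 CPM in the next highest library.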

How the results depend on the processing

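The counts of class II genes called were 7 of 7 in both comparisons with the colon under every setting run. Between colon and duodenum the index and the region are largely confounded, since only 1 colon library shares an index with duodenum libraries. Between ileum and duodenum the count was 4 with no filter on low counts, 0 with the library index as a covariate, 5 to 7 when each mouse was left out in turn (5 without mouse 21), and 7 in each other setting. With the mouse as a fixed replicate block and as a random replicate block the count remained 7 in all 3 region comparisons, and the pairing by mouse changed no count. Ptprc passed for colon against ileum with DESeq2 (0.88), the random replicate block (1.01) and without mouse 13 (1.05). With the index as a covariate the ileum against duodenum values turned to -0.13 for H2-Aa, -0.017 for H2-Ab1, -0.27 for H2-DMa, -0.35 for H2-DMb1 and -0.032 for Cd74 on the log2 scale; the index and the region cannot be told apart there. In the same fit Ptprc was at -1.85 for ileum against duodenum and turned to -1.53 for colon against duodenum. Without mouse 27, and with no index in the fit, Ptprc was at 0.057 for ileum against duodenum (range over left-out mice -0.56 to 0.057). For VSG against S_wm in the duodenum the count was 0, and 0 to 1 over left-out mice, the 1 being H2-Eb1 without mouse 31 (log2 -2.47, adjusted p = 0.0441, edgeR). For VSG against S_al in the colon, H2-Eb1 turned to 0.16 with limma voom and the random replicate block, and Ciita ranged from -0.97 to 0.33 over left-out mice; the cause was not tested. Every other surgery count was 0 in all settings. Of the relations with Ptprc 9 passed, and 0 with surgery group means removed and 0 without the 2 farthest libraries; of the relations between regions 3 passed, 4 with surgery group means removed and 0 without the 2 farthest mice. These correlation settings and the fit without the duodenum library of mouse 27 were chosen after seeing the data. Colon levels rest on few reads (155 of H2-DMb1 and 177 of H2-Eb1 over 16 libraries).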
